A study of Rattus norvegicus with 11 samples.

Results

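Solute carriers are membrane proteins that move ions, nutrients and metabolites across the plasma membrane and the membranes of organelles. The carriers described here were all genes whose single platform symbol begins with Slc and a family number, without Slc2a1, Slc2a4, Slc8a1, Slc22a5 and Slc25a20, and each gene was read by its brightest probe set. This gave 115 genes, measured by 170 probe sets, among 4736 genes with a single symbol on the array. Total RNA of ventricle from rats of the inbred Fischer-344 strain was hybridised to 11 Affymetrix rat arrays. The old group held 6 arrays from rats of 22 months and the young group 5 arrays from rats of 4 months, with no treatment or genotype named for either. The labels do not say that the arrays stand for separate rats. The p-values therefore measure array-to-array spread within each age, and part of that spread may be technical.

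Solute carriers are grouped into numbered families by sequence, and most families share a kind of substrate. Heart muscle depends on them at several points: carriers of the Slc25 family pass ADP, ATP, phosphate and Krebs cycle intermediates through the inner mitochondrial membrane, Slc16 carriers take up lactate and ketone bodies, and Slc4 and Slc9 exchangers hold the pH of the myocyte. Other families serve other organs, such as the kidney tubule, the liver and nerve endings, and are known mainly from there.

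The arrays bear on these values in 3 ways. Each array had been scaled by the authors to a trimmed mean intensity between 500.47 and 500.96, so each difference is relative to the rest of its array. Of the 7 cardiac muscle markers on the array, 6 read high on all arrays, among them Myh6, Tnnt2 and Myl2. Of 5 skeletal muscle markers, Acta1 read high on all arrays, Tnnt3 and Myh4 lay between, and Myh2 and Tnni2 lay mostly at the floor described below. All 3 tested atrial and all 4 smooth muscle markers were higher in old, with medians of 0.95 and 1.05. All 3 tested endothelial markers were lower, with a median of -0.81. Fat markers were 3 higher and 1 lower, fibroblast markers 2 higher and 3 lower. No marker passed limma after adjustment, and the part of these cells in the carrier values was not tested. Old replicates 3 and 4 stood apart by the GAPDH control, whose 3' over 5' log2 ratio was 3.39 and 4.09 there and 0.07 to 0.77 elsewhere. Bacterial spike-in controls were bright on old replicates 3 to 6 and young replicate 4 and dim on the other 6 arrays, so spike-in brightness moved partly with age. In ventricle tissue, fewer cells of a type and less RNA per cell cannot be told apart.

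Between old and young ventricle, 0 of 80 tested solute carriers passed limma at an adjusted p of 0.05, where 0% of all genes did, and higher and lower carriers were about equally many. A set of 12 carriers read high on all arrays, 5 of them mitochondrial. The lowest unadjusted p-values belonged to 2 anion exchangers with opposite signs, Slc4a2 and Slc4a3.

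The table holds no detection calls, so reading was described by intensity. A gene was counted as high where the deposited intensity was at least 500, close to the trimmed mean of the array, on every array. It was counted as low where the intensity was at or below a floor of 47.4, the 20th percentile of all values, on 6 or more of the 11 arrays. Of the 115 carriers, 12 read high (10.4%), 15 read low (13%) and 88 lay between, against 12.2% high and 11.3% low among all genes. A further 6 carriers reached 500 on 9 or 10 arrays, 58 did so on 1 to 8 arrays, and 39 did so on none. Without young replicate 1 the count of low carriers was 9. The bound stays at 6 arrays when a single array is left out, so this count could only stay or fall. Probe sets differ in how strongly they bind, so these classes say where a gene read on its own probe set, and the levels of different genes were not ranked.

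Carriers known mainly from other organs were used as a measure of what intensity such genes gave in ventricle. Of a list of 40 such genes, 34 were among the carriers here, and 1 of them (2.94%) read high and 6 (17.6%) read low. The 81 other carriers held 11 that read high (13.6%) and 9 that read low (11.1%). The low ones of the list were the liver bile acid carrier Slc10a1, the glucose carrier of liver and beta cells Slc2a2, the renal carriers Slc13a1 and Slc17a1, and the vesicular carriers Slc17a7 and Slc18a1. Slc17a1 was classed with the vesicular carriers by its family. Reading at or above 500 on 6 or more arrays was seen for 6 of the 34 (17.6%) and for 24 of the 81 (29.6%). The 6 were the urea carrier Slc14a2, the GABA carrier Slc6a11, the acetylcholine carrier Slc18a3, the liver anion carrier Slc22a7, the nucleoside carrier Slc28a1 and the serotonin carrier Slc6a4. Readings of this size were thus also given by carriers best known outside the heart, and whether it came from their own transcript was not tested.

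**Figure D1:**
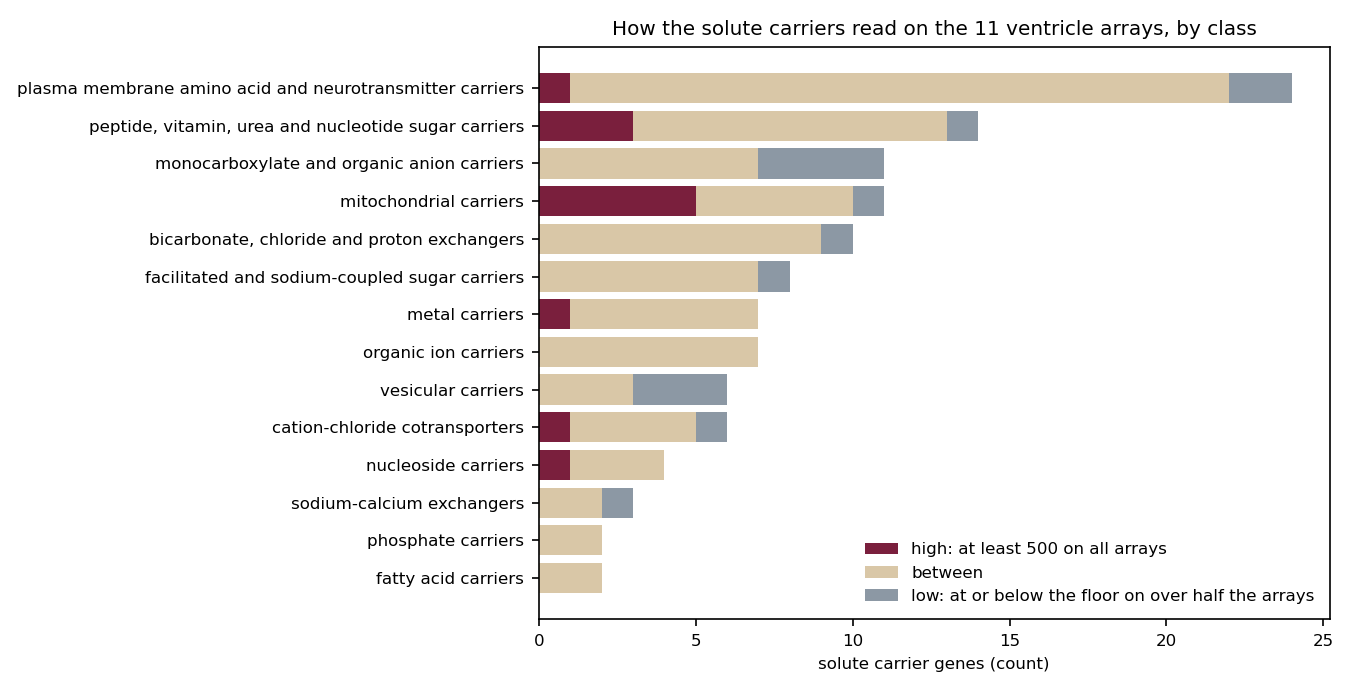
Counts of the 115 solute carrier genes in each of 14 substrate classes, split by how they read on the 11 arrays. Mitochondrial carriers hold 5 of the 12 genes that read high, and the class of vesicular carriers holds 3 low genes among 6, of which Slc17a1 is in it by family only.

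Mitochondrial carriers were the class with the most high readings, 5 of 11 genes (45.5%). Slc25a4, the heart and muscle form of the ADP/ATP carrier, read 14.80, 14.66, 15.61, 15.43 and 15.58 on the log2 scale in the young arrays and from 13.79 to 15.54, with a median of 15.06, in the old. Old replicates 1 to 4 lay within the young range, and old replicates 5 and 6 lay below it. Its difference, old minus young, was -0.31 ± 0.35 (SE, limma), with a 95% confidence interval from -1.04 to 0.42, and was 0.12 among the arrays of dim spike-ins alone. Slc25a3, the phosphate carrier of the inner membrane, read 14.62, 14.29, 14.86, 14.54 and 14.35 in young and 13.37 to 14.86, median 14.51, in old. Old replicate 6 was again the lowest array, and the difference was -0.19 ± 0.30, with an interval from -0.82 to 0.45 and with 0.011 when the replicate number was a block, a fit that gives no weight to old replicate 6. For both carriers the intensity stayed at or above 10563.9 on every array.

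Slc25a5, the ADP/ATP carrier found in most tissues, read 11.63, 10.45, 12.02, 10.27 and 11.84 in young and 9.87 to 11.40, median 11.24, in old. The young arrays fell into 3 high and 2 low readings, and the difference of -0.39 ± 0.41 was 0.055 when blocked on spike-in brightness. The probe sets of Slc25a4 and Slc25a5 both carry the suffix _s_at, by which the manufacturer marks probe sets that can read more than 1 related transcript. Slc25a26, which brings S-adenosylmethionine into mitochondria, differed by 0.17 ± 0.31, and its old arrays all lay between 10.28 and 10.75.

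Slc25a11, the oxoglutarate/malate carrier of the malate-aspartate shuttle, read 11.79, 11.58, 12.42, 11.37 and 12.04 in young. In old it read 10.01 to 12.04, median 11.24, and the lowest arrays were old replicates 3 and 4, those of high GAPDH ratio. The difference of -0.71 ± 0.38 (SE, limma unadjusted p = 0.0784, adjusted p = 0.675) became -0.21 ± 0.33 without these arrays. Its other probe set, which also read high, differed by 0.25 ± 0.31. The 2 readings of this gene therefore had opposite signs, and each interval included 0.

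Among mitochondrial carriers that read between, the dicarboxylate carrier Slc25a10 differed by -0.77 ± 0.53 and the citrate carrier Slc25a1 by 0.29 ± 0.48. The other tested probe set of Slc25a10 differed by -0.017 ± 0.67. A further probe set, too dim to be tested, had means of 7.33 in old and 5.68 in young. Slc25a17, a carrier of the peroxisome membrane, differed by -0.75 ± 0.56, Slc25a30 by -0.68 ± 0.64 and Slc25a14 by 0.51 ± 0.67. Of the 10 tested genes of the class 7 were lower and 3 higher in old, with a median difference of -0.35, beside a median of -0.0053 over all 3206 genes tested. Among the brighter genes left by a filter at the 60th percentile, the median of all genes was -0.084. The mean log2 value of the class was 10.22 ± 0.48 (SD) over the 6 old arrays and 10.51 ± 0.33 (SD) over the 5 young ones. Old replicates 3 and 6, at 9.79 and 9.54, lay below the young range of 10.02 to 10.89, and the other 4 old arrays lay within it. The class median was 0.034 among the arrays of dim spike-ins alone, the single alternative of 25 in which it was positive. Slc25a23, the last member, read at or below the floor on 6 arrays and was not tested.

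**Figure D2:**
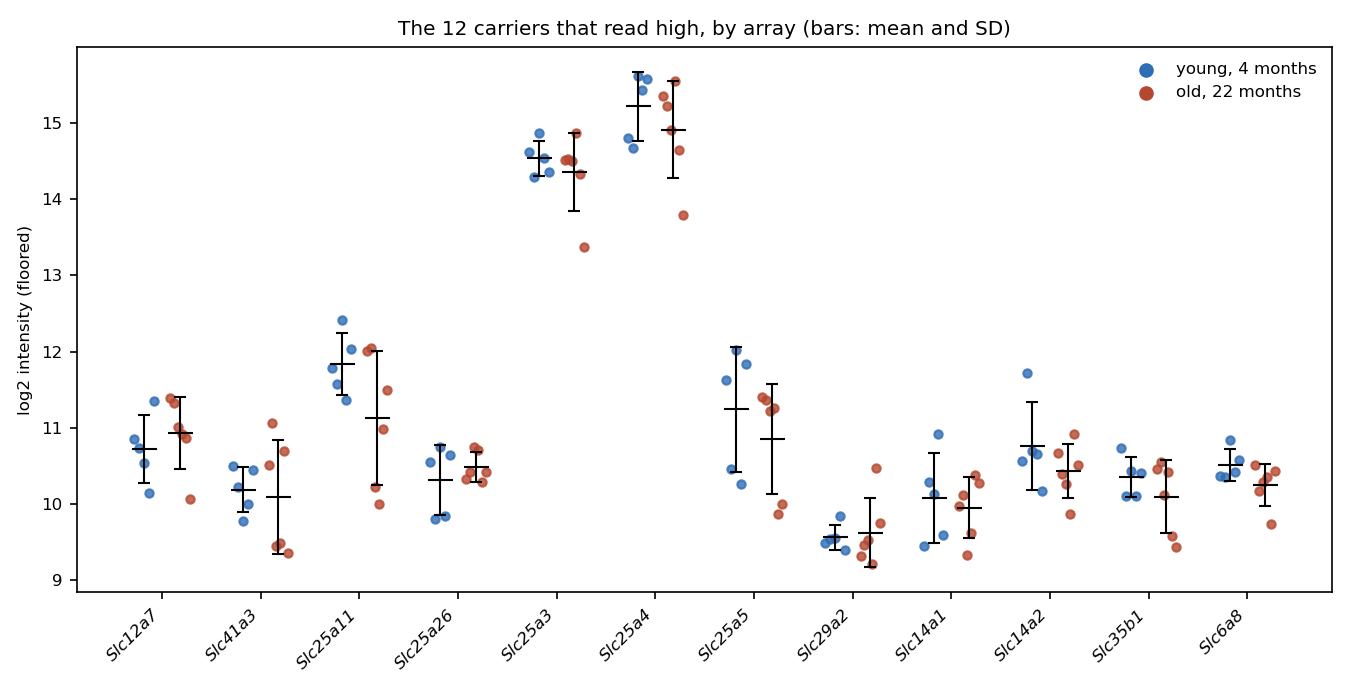
Log2 intensity of the 12 carriers that read at least 500 on every array, 1 point per array, with the mean and SD of 5 young and 6 old arrays. The old and young points overlap for every gene, and old replicate 6 is the lowest array for 5 of the 12.

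The other 7 carriers that read high came from 5 classes. Slc6a8, the creatine carrier that supplies the phosphocreatine store of muscle, read 10.36, 10.35, 10.84, 10.43 and 10.57 in young and 9.74 to 10.52, median 10.32, in old. Its groups differed by -0.26 ± 0.29, with an interval from -0.87 to 0.35. The sign was negative under all 25 alternatives tried, with values from -0.38 to -0.16. Some of the 25, such as other filters and the fit with no trend, cannot change the difference of a single gene. Slc12a7, a potassium-chloride cotransporter that lowers cell volume, differed by 0.21 ± 0.32, and Slc29a2, an equilibrative nucleoside carrier, by 0.060 ± 0.34. Slc41a3, of a family of magnesium carriers, differed by -0.095 ± 0.37, and Slc35b1, of the nucleotide sugar families, by -0.26 ± 0.32. The urea carriers Slc14a1, known from red cells, and Slc14a2, known from kidney, differed by -0.12 ± 0.35 and -0.33 ± 0.33. Both urea carriers read high on their brightest probe set only. Their other probe sets were too dim to be tested, and sat at the floor on 3 arrays for Slc14a1 and on 5 for Slc14a2. The means of these probe sets were 7.20 in old and 6.43 in young for Slc14a1. For Slc14a2 they were 6.41 in old and 6.52 in young. The 12 high carriers had a median standard error of 0.34, against 0.60 for the 68 tested carriers that lay between. Of the 12, 9 were lower in old, with a median difference of -0.22. Brighter genes in general also leaned lower. Among all genes left by a filter at the 60th percentile, 44.7% were higher in old, with a median of -0.084. That filter is looser than the bound for reading high, and all genes that read high were not compared in this way.

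Bicarbonate, chloride and proton exchangers held both carriers with the smallest p. Slc4a2, the anion exchanger AE2, which exports bicarbonate in exchange for chloride, read 5.57, 6.85, 6.76, 9.59 and 8.63 in young. In old it read 8.58 to 10.03, with a median of 9.07. The old arrays lay close together, while the young ones ran from the floor to a reading above all but 1 old array. The mean was 9.16 ± 0.50 (SD) over the 6 old arrays and 7.48 ± 1.61 (SD) over the 5 young ones. They differed by 1.68 ± 0.61 (SE, limma unadjusted p = 0.0129, adjusted p = 0.56). Blocking on spike-in brightness gave 1.03 ± 0.62, and the 4 old and 1 young array of bright spike-ins gave -0.20. The other probe set of Slc4a2 was too dim to be tested, with a mean of 6.39 in old and 6.32 in young.

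Slc4a3 is the anion exchanger AE3, known from heart and brain, and its difference had the opposite sign. It read 10.65, 10.96, 11.20, 10.14 and 11.09 in young and 8.85 to 10.48, median 10.12, in old. Of the young arrays, 4 lay above all old ones, and young replicate 4 lay within the old range. The mean was 9.91 ± 0.60 (SD) over the old arrays and 10.81 ± 0.43 (SD) over the young ones, and they differed by -0.89 ± 0.35 (SE, limma unadjusted p = 0.02, adjusted p = 0.56). The lowest array was old replicate 3, and the difference was -0.55 ± 0.33 without the arrays of high GAPDH ratio and -0.53 ± 0.36 when blocked on spike-in brightness. Across the 25 alternatives it ran from -1.06 to -0.53 and that of Slc4a2 from 1.03 to 2.21. These do not include the bright arrays alone, where Slc4a2 changed sign as given above and Slc4a3 differed by -0.46.

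Among the other carriers of the class, Slc4a1, the band 3 anion exchanger of red cells, differed by 0.40 ± 0.40. Its other tested probe sets differed by -1.10 ± 0.69 and 0.36 ± 0.68. All 3 red cell markers measured, Slc4a1 on its brightest probe set among them, were higher in old, Hbb by 1.71 ± 0.93 and Alas2 by 0.12 ± 0.71. Hbb read 9.21 on young replicate 4 and 15.02 or more on the other young arrays. The summed intensity of the markers ran from 13942.9 to 178152.8 in old and from 2083.9 to 73347.8 in young. The part of blood in the value of Slc4a1 was not tested. Slc4a7 and Slc4a4, which bring in bicarbonate with sodium, differed by 0.17 ± 0.39 and -0.74 ± 0.75, and Slc4a4 was 0.30 among the arrays of dim spike-ins alone. The sulfate carriers Slc26a1 and Slc26a2 differed by -0.41 ± 0.67 and 0.77 ± 0.63. The sodium-proton exchangers Slc9a2, Slc9a3 and Slc9a4 were too dim to be tested.

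**Figure D3:**
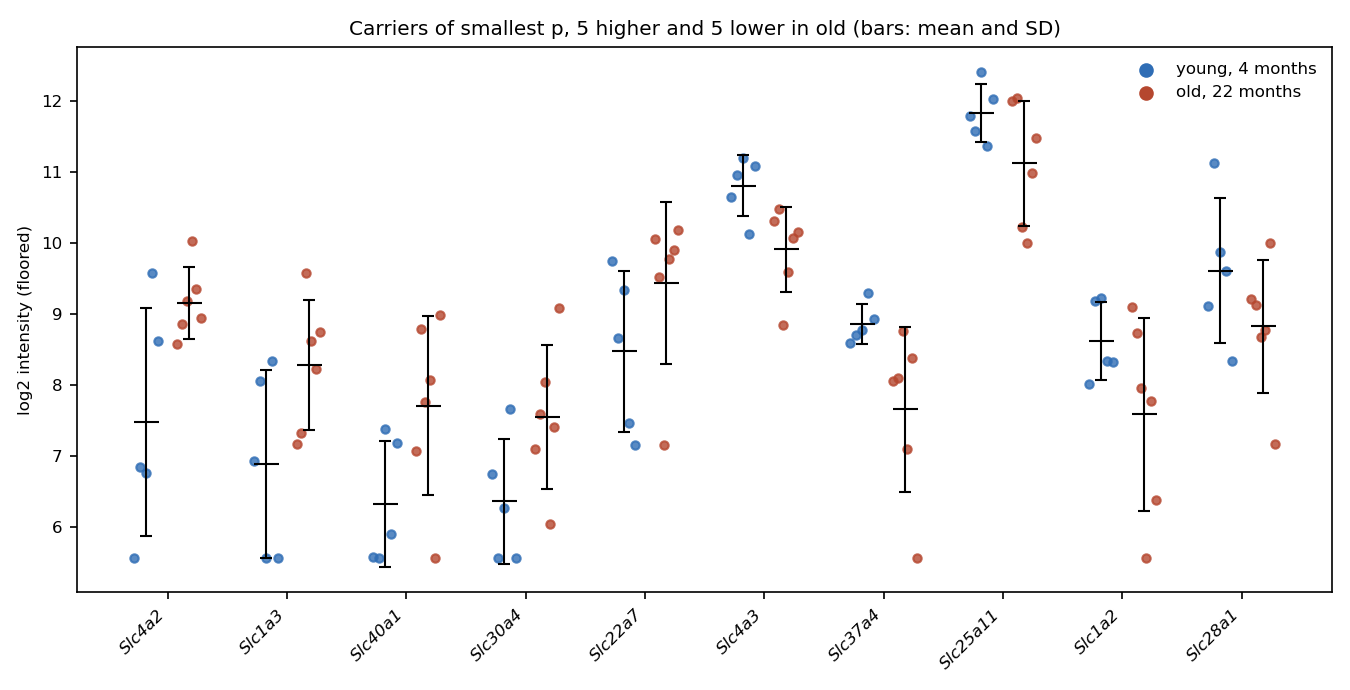
Log2 intensity of the 5 carriers of smallest p among those higher in old, Slc4a2 to Slc22a7, and the 5 among those lower in old, Slc4a3 to Slc28a1, 1 point per array with the mean and SD. For each gene at least 1 array of a group lies within the range of the other group, and for Slc4a3 4 of the 5 young arrays lie above all old ones.

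Metal carriers included 2 of the 5 carriers with the smallest p among those higher in old. Slc40a1, ferroportin, which exports iron from cells and is abundant in macrophages, read 5.58, 5.57, 7.39, 5.91 and 7.19 in young and 5.57 to 8.99, median 7.92, in old. Young replicates 1, 2 and 4 read at or near the floor of 5.57, and old replicate 5 read at it. The difference was 1.38 ± 0.67 (SE, limma unadjusted p = 0.0535, adjusted p = 0.661). Arrays of both groups sat at the floor, which can move the difference in either direction. Of 7 macrophage and granulocyte markers 5 were on the array and 3 tested, of which 2 were higher in old. Lyz2 differed by 1.49 ± 0.65, Ptprc by 0.82 ± 0.58 and Cd14 by -0.31 ± 0.45. The summed intensity of the list ran from 2622.4 to 36870.5 in old and from 1675 to 3001.4 in young. Of the highest sum, 35867.8 was Lyz2 on old replicate 3, an array of high GAPDH ratio. The part of these cells in the value of Slc40a1 was not tested.

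Slc30a4, a zinc carrier of vesicles, read 6.76, 5.57, 6.26, 7.66 and 5.57 in young and 6.05 to 9.10, median 7.51, in old, a difference of 1.19 ± 0.63 (SE, limma unadjusted p = 0.0766, adjusted p = 0.675). The highest old array was replicate 6, and the bright arrays alone gave -0.0083. Slc30a2, another zinc carrier, differed by 0.76 ± 0.67, and Slc11a2, which takes up iron into cells, by -0.042 ± 0.41. The class mean was 8.56 ± 0.45 (SD) over the old arrays and 7.92 ± 0.36 (SD) over the young ones. Of 5 tested genes 3 were higher in old, with a median difference of 0.76, which was -0.042 with a filter at the 60th percentile, where only the brighter genes are left.

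Carriers of amino acids and neurotransmitters formed the largest class, with 24 genes and 18 tested, 9 higher and 9 lower in old. Slc1a3, the glutamate carrier GLAST, read 6.93, 8.05, 5.57, 8.34 and 5.57 in young and 7.17 to 9.59, median 8.43, in old. Of the old arrays 3 lay within the young range and 3 above it, and 2 young arrays sat at the floor. The difference was 1.39 ± 0.65 (SE, limma unadjusted p = 0.0454, adjusted p = 0.649). Blocking on spike-in brightness gave 0.62 ± 0.64. Slc1a2, the glutamate carrier GLT-1, differed by -1.03 ± 0.62 and by 0.23 among the arrays of dim spike-ins alone. The other probe sets of Slc1a2 and Slc1a3 were too dim to be tested, and their means were higher in old. For Slc1a2 these means were 6.42, 6.38 and 7.05 in old and 5.84, 5.81 and 6.60 in young.

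Slc3a2, the heavy chain shared by several amino acid exchangers, read 9.19, 6.97, 8.97, 9.33 and 9.52 in young and 8.48 to 9.92, median 9.42, in old. Young replicate 2 lay apart from the rest, and the difference was 0.54 ± 0.47. It was 0.088 ± 0.39 without that array and 0.99 ± 0.65 among the arrays of dim spike-ins alone. The other tested probe set of Slc3a2 differed by 0.0071 ± 0.68. Slc7a5, the leucine-preferring light chain LAT1 that pairs with Slc3a2, differed by -0.35 ± 0.52. Slc6a6, the taurine carrier, ran from the floor to 10.05 among the old arrays and differed by 0.043 ± 0.77, with an interval from -1.56 to 1.65. It was -0.48 without old replicate 1, -0.075 with median centring and 1.58 ± 0.88 among the arrays of dim spike-ins alone. The interval allows a change of more than 2-fold in either direction, so a shift of Slc6a6 was not detectable here. The noradrenaline carrier of nerve endings, Slc6a2, differed by 0.70 ± 0.43, and the serotonin carrier Slc6a4 by -0.87 ± 0.59, with its lowest arrays at old replicates 3 and 4, at 7.31 and 6.04.

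Among monocarboxylate carriers, Slc16a1, the lactate and ketone body carrier MCT1, read 11.41, 8.72, 11.19, 9.48 and 11.74 in young and 10.17 to 12.27, median 10.83, in old. Young replicates 2 and 4 lay below all old arrays, and the other 3 lay within the old range. The difference was 0.53 ± 0.52 and that of its other probe set 0.59 ± 0.49. It was 0.083 ± 0.48 without young replicate 2, 1.18 ± 0.50 when blocked on spike-in brightness and 1.25 ± 0.70 among the arrays of dim spike-ins alone. Slc16a3, the lactate carrier MCT4 of glycolytic muscle, differed by 0.27 ± 0.60, while Slc16a6, Slc16a7, Slc16a8 and Slc16a12 were too dim to be tested. The class of 11 monocarboxylate and organic anion carriers held 4 low genes and no high one.

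Of the nucleoside carriers, Slc29a1, the equilibrative carrier ENT1 that clears adenosine, read 9.41, 8.94, 8.96, 8.78 and 9.52 in young and 9.18 to 9.86, median 9.60, in old. The lower 3 young arrays lay below every old one, and the other 2 lay within the old range. Its difference of 0.44 ± 0.34 (SE, limma unadjusted p = 0.214, adjusted p = 0.781) was between 0.32 and 0.57 under all 25 alternatives, some of which cannot change it. The concentrative carriers Slc28a1 and Slc28a2, which take up nucleosides with sodium, differed by -0.79 ± 0.52 and -0.044 ± 0.47.

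Slc27a1, a fatty acid transport protein of muscle and fat, read 9.67, 9.53, 10.20, 8.51 and 9.81 in young and 8.72 to 10.001, median 9.88, in old. The difference was 0.054 ± 0.39, with an interval from -0.76 to 0.87, and was -0.064 with median centring. Slc20a2, the sodium-phosphate carrier Pit-2, read 9.33 to 10.37 in young and 9.59 to 10.33 in old apart from old replicates 3 and 4, at 6.21 and 6.48. Its difference of -1.02 ± 0.68 became 0.21 ± 0.36 without these arrays. The 2 tested sodium-calcium exchangers Slc8a2 and Slc8a3 differed by -0.74 ± 0.54 and -0.64 ± 0.60.

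Among sugar carriers, Slc2a3, the glucose carrier GLUT3, differed by 0.20 ± 0.44, the inositol carrier Slc5a3 by 0.43 ± 0.56 and the vitamin carrier Slc5a6 by 0.35 ± 0.58. The signs of Slc2a3 and Slc5a3 turned when blocked on spike-in brightness, to -0.20 and -0.038, and that of Slc5a6 to -0.43 as the mean of its probe sets. Of the sodium-driven chloride carriers, Slc12a2 differed by -0.36 ± 0.71, and the potassium-driven Slc12a4 by -0.68 ± 0.49, with 0.74 ± 0.62 in its other probe set. Of 6 tested organic ion carriers 4 were higher in old, with a median of 0.47. Slc22a7 differed by 0.96 ± 0.58 and by 1.73 ± 0.77 in its other probe set, and the extraneuronal monoamine carrier Slc22a3 by -0.14 ± 0.71.

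Slc37a4, the glucose-6-phosphate carrier of the endoplasmic reticulum, read 8.59, 8.71, 8.77, 9.30 and 8.93 in young and 5.57 to 8.76, median 8.08, in old. Old replicate 3 was the single old array above any young one, and old replicate 6 sat at the floor. The difference was -1.20 ± 0.55 (SE, limma unadjusted p = 0.0423, adjusted p = 0.642), and -0.88 ± 0.62 in its other probe set. It kept its sign under all 25 alternatives, from -1.42 to -0.68, and the smallest of these was within the arrays of dim spike-ins. Some of the 25 cannot change the difference of a single gene. The reduced folate carrier Slc19a1 differed by -0.51 ± 0.40.

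**Figure D4:**
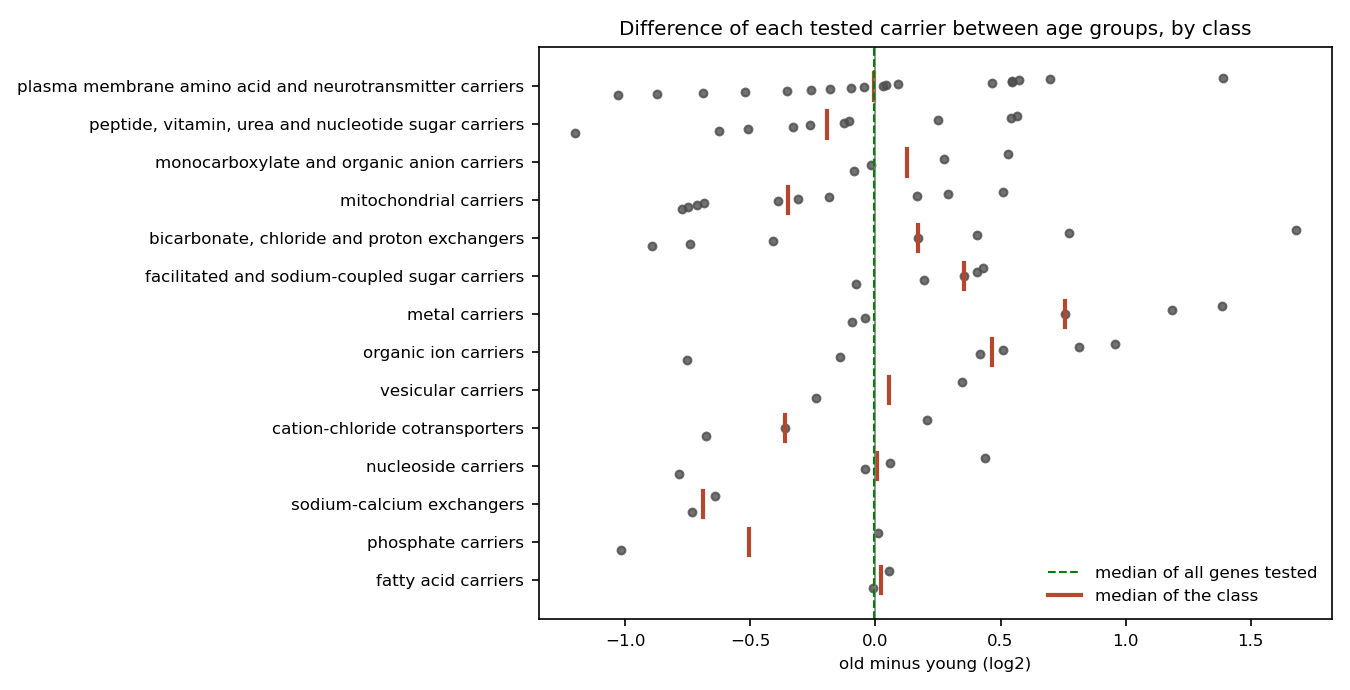
Difference of each of the 80 tested carriers, old minus young on the log2 scale, by substrate class, with the class median and the median of all genes tested. The points of most classes lie on both sides of 0, and the carrier farthest to the right is Slc4a2, at 1.68.

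Over all carriers, 80 of 115 (69.6%) passed the filter on dim probe sets, against 67.7% of all genes. Of the 80, 38 were higher and 42 lower in old, with a median of -0.031, beside 49.7% higher and a median of -0.0053 over all genes. The median of the carriers lay between -0.15 and 0.15 over the 25 alternatives. The 24 measured carriers of the heart list were 11 higher and 13 lower, with a median of -0.16. At an unadjusted p under 0.05 there were 4 of the 80 (5%), close to the 6.86% of all genes, with 2 higher, beside 3.18% of all genes, and 2 lower, beside 3.68%. The old and young arrays overlapped for every carrier, so 0 of 80 were separated, where 0.998% of all genes were. The count of 4 was 7 without old replicate 1, 2 without old replicate 6, 1 without young replicate 1 and 2 without young replicate 3. Median centring moved the median of all genes by -0.12, and with it 32 carriers were higher and 48 lower.

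For 17 carriers a further probe set of the same gene was tested, 21 probe sets in all. The sign of the difference was shared with the brightest probe set for 11 of the 21. Slc37a4, Slc22a7 and Slc16a1 had the same sign in both, and Slc25a11, Slc12a4 and Slc5a6 had opposite signs. Of the other tested probe sets of Slc4a1, at -1.10 ± 0.69 and 0.36 ± 0.68, the first had the opposite sign.

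**Figure D5:**
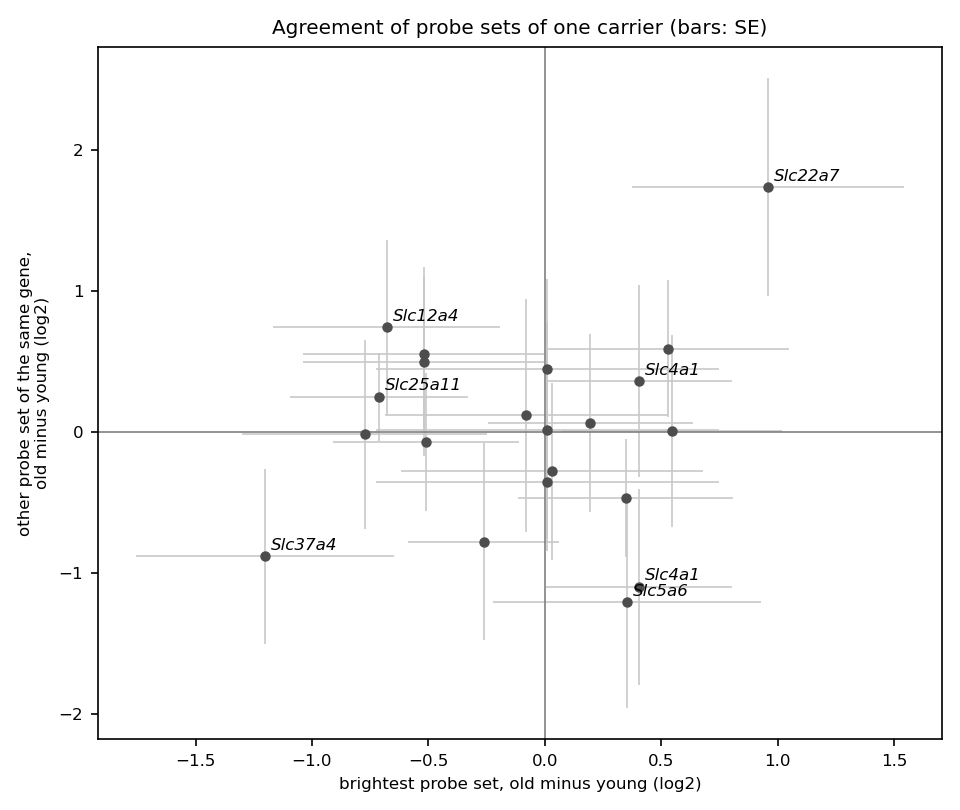
Difference between old and young in the brightest probe set of a carrier (horizontal) against that in each other tested probe set of the same carrier (vertical), both on the log2 scale with SE, for 21 pairs. Of the 21 points 11 lie in the quadrants of equal sign.

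Of 25 partner genes on the array, such as the MCT chaperone Bsg, carbonic anhydrases, sodium pump subunits and uncoupling proteins, 21 were tested, 8 higher and 13 lower in old, with a median of -0.30, and 0 passed limma after adjustment. Fxyd1, the phospholemman that restrains the sodium pump, was the single one at an unadjusted p under 0.05, with a difference of -0.70 ± 0.29. Bsg differed by -0.43 ± 0.31. Of the 5 carriers set aside, 2 were higher and 3 lower, and Slc2a4, the insulin-dependent glucose carrier, differed by -0.95 ± 0.31 (SE, limma unadjusted p = 0.00635, adjusted p = 0.56).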

How the data were processed

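Ventricle RNA was measured on 11 arrays. The authors deposited 1 table of linear intensity values, with a column per array and 8799 probe sets, scaled per array to judge by the deposited values, and the software behind it is not given in the sources used here. Any value under 47.4, the 20th percentile of the table, was set to it (5.57 after the log2 step), and log2 was taken. The 59 control probe sets and those with a mean log2 value under the 40th percentile were left out, which left 5244 probe sets and 3206 genes. The age groups were fitted with limma 3.58.1 (R 4.3.3; lmFit, eBayes with trend), with Benjamini-Hochberg adjustment over all 5244. The number of arrays limits the precision. The script was checked on simulated data. Symbols came from GEO's platform annotation, and all 115 carriers matched the RefSeq table of assembly GRCr8 by gene number. A probe set was left out where it listed more than 1 symbol, which removed 2. No coordinates or sequences are printed, since the table names no build and gives no probe sequence.

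The members, classes and lists were chosen with earlier results of these data known, so no list was tested. Named were the carriers of a list of 27 with known roles in heart, of which 24 were measured, and the 5 of smallest p in each direction; other carriers were named by class, because they read high, or after their values were seen. Alternatives were other floors and filters, a pseudocount of 50, quantile normalization, median centring, no trend, array weights, a replicate block, a spike-in block, leaving out arrays, and the mean of all probe sets. The arrays of dim spike-ins alone, and the reading classes without the arrays of high GAPDH ratio, were added after seeing the data.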

Additional observations from a re-analysis of the deposited data

Results flagged for a closer look

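Among 92 sets of readings (the old and the young arrays of 32 named genes and 14 classes), 6 had 1 array far from the others of its group by Dixon's criterion, where chance gives about 1 in 20. Old replicate 3 read 7.16 for Slc22a7, the other old arrays 9.52 or more. Old replicate 6 read 13.37 for Slc25a3, the others 14.33 or more. Young replicate 2 read 6.97 for Slc3a2, the others 8.97 or more. In class means, old replicate 4 was low for amino acid and neurotransmitter carriers at 8.01, the next being 8.35. Young replicate 3 was low for monocarboxylate and organic anion carriers at 8.58, the next being 8.82. Young replicate 2 was high for bicarbonate, chloride and proton exchangers at 8.94, the next being 8.32.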

How the results depend on the processing

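No carrier passed limma after adjustment under any of 26 alternatives, and the smallest adjusted p among the carriers was 0.171, with array weights. Over the whole table, 2 probe sets passed without old replicate 5 and 1 among the arrays of dim spike-ins alone, none of them a carrier. The count of carriers at an unadjusted p under 0.05, 4 in all, was 2 with the spike-in block and ran from 1 to 7 on leaving out single arrays. With the replicate block, in which old replicate 6 has no partner and carries no weight, it was 2. The replicate numbers do not pair the arrays: the correlation of same-numbered deviations ran from -0.25 to 0.25, and 1 of 5 young arrays correlated best with its own number. The count of carriers reading high was 21 at a bound of 250 and 4 at 1000, and ran from 12 to 14 without single arrays. By the rule, leaving out an array can only keep or raise it. The count of carriers reading low ran from 9 to 14, and leaving out a single array can only keep or lower it.

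Class medians moved beyond the spread between arrays as follows. For amino acid and neurotransmitter carriers the median was 0.41 with array weights. Among the arrays of dim spike-ins alone it was -0.21 for monocarboxylate and organic anion carriers, 0.16 for sodium-calcium exchangers, 0.49 for cation-chloride cotransporters and 1.29 for metal carriers. For metal carriers it was also 0.19 with the floor at the 30th percentile, 0.31 with no filter and -0.042 with the filter at the 60th percentile, and 0.42 to 1.17 without single arrays. The cause was not tested except for that filter, which tests fewer genes.

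Of the carriers named in the report, those of the heart list and those of smallest p were refitted under the 25 alternatives, with Slc2a4 and Fxyd1, 32 genes in all. Slc1a3, Slc22a3, Slc40a1, Slc4a4, Slc5a3 and Slc6a6 were tested in 24 of the 25 and Slc30a4 in 23. The 32 genes kept their sign apart from these values. Among the arrays of dim spike-ins alone, the difference was 0.70 for Slc12a2, 0.23 for Slc1a2, 0.43 for Slc22a3, 0.069 for Slc25a11, 0.12 for Slc25a4, -0.11 for Slc2a3, 0.30 for Slc4a4 and -0.42 for Slc5a3. With the spike-in block it was 0.055 for Slc25a5, -0.20 for Slc2a3, 0.093 for Slc4a4 and -0.038 for Slc5a3. With array weights it was 0.083 for Slc12a2 and 0.038 for Slc7a5. With the replicate block it was 0.011 for Slc25a3 and 0.047 for Slc7a5. As the mean of all probe sets it was 0.032 for Slc12a4 and -0.43 for Slc5a6. With median centring it was -0.064 for Slc27a1 and -0.075 for Slc6a6, and with quantile normalization -0.10 for Slc6a6. Without the arrays of high GAPDH ratio it was 0.21 for Slc20a2. On leaving out single arrays the ranges that crossed 0 were -0.77 to 0.069 for Slc12a2, -0.45 to 0.19 for Slc22a3, -0.29 to 0.011 for Slc25a3, -0.20 to 0.23 for Slc27a1, -0.063 to 0.39 for Slc2a3, -0.48 to 0.42 for Slc6a6 and -0.57 to 0.047 for Slc7a5. The other carriers were not refitted in this way. Among the arrays of dim spike-ins alone, 11 of those named had the opposite sign: 0.19 for Slc14a1, 0.47 for Slc25a17, -0.064 for Slc25a26, 0.90 for Slc28a2, -0.11 for Slc29a2, 0.087 for Slc35b1, 0.55 for Slc41a3, -0.49 for Slc4a7, 0.16 for Slc6a4, 0.17 for Slc8a2 and 0.14 for Slc8a3. The arrays of bright spike-ins hold 1 young array, so they gave a value with no test and are not among the alternatives; of these genes, Slc2a4 and Fxyd1 apart, those of opposite sign there were 0.32 for Slc25a5, -0.33 for Slc2a3, -0.0083 for Slc30a4, -0.15 for Slc3a2, -0.20 for Slc4a2, -1.45 for Slc6a6 and 0.083 for Slc7a5. The cause was not tested. The replicate block changed no other sign of the 32 genes and no call. Depth here is the signal over the floor: 15.6% of all carrier readings lay at or below it. Differences of such genes can be understated, or overstated where the higher group has arrays there.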
